A study of Arabidopsis thaliana with 2 samples.

Results

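The genes described here are 10 Arabidopsis thaliana genes that add, copy or remove cytosine methylation in DNA, or guard genes against it. They were chosen by their gene codes, and every transcript whose own name or nearest annotated transcript carries 1 of those codes was taken. That gave 25 of the 52608 transcripts in the deposited table, and 10 of its 33575 annotated genes. The methylation side holds 5 genes, with the methyltransferases MET1 (AT5G49160), CMT3 (AT1G69770) and CMT2 (AT4G19020), the chromatin remodeller DDM1 (AT5G66750) and VIM1 (AT1G57820). The demethylase side holds 4, namely ROS1 (AT2G36490), DME (AT5G04560), DML2 (AT3G10010) and DML3 (AT4G34060). IBM1 (AT3G07610), which encodes a histone demethylase, was counted on its own. The table itself gives MET1, DDM1 and ROS1 under the names MET2, SOM1 and DML1.

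The labelled libraries are RNA of siliques, the seed pods, of Col-0 plants with the ago3-3 genotype, grown in soil in long days and collected 1 to 5 days after pollination (n = 2). Ribosomal RNA was depleted and the libraries kept the strand. The design of the study also names wild-type Col-0 siliques, which were not analysed here as separate libraries. Which libraries were merged is not stated, so any transcript below may come from wild type, ago3-3 or both. The deposited table is 1 merged set of transcript models, with 0 columns of values per library. It therefore gives structures and no levels, the depth behind a structure is unknown, no difference between genotypes or spread between plants could be computed, and neither the tissue nor the mutated gene could be checked by expression. An annotated transcript stands in such a set with or without reads, so below a gene with annotated transcripts alone is not called unexpressed. A new isoform is an assembled transcript that shares at least 1 splice junction with an annotated transcript and differs from it elsewhere. No test was made. The counts are set beside the same counts over all genes of the table, and they cannot separate splicing that differs between genes from unequal read depth, which was not tested.

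Plant DNA methylation is kept up by several enzymes. MET1 copies methylation at CG sites after replication, and VIM1 is a protein that binds hemimethylated DNA and is needed for that step. CMT3 and CMT2 methylate cytosines outside CG sites in chromatin that carries repressive histone methylation, CMT3 mainly at CHG and CMT2 mainly at CHH sites (H is any base but G). DDM1 opens such chromatin to the methyltransferases. Removal is active. ROS1, DME, DML2 and DML3 are DNA glycosylases that cut out methylated cytosine, which base excision repair then replaces. DME acts in the central cell of the ovule and in the vegetative cell of pollen and sets up imprinted genes in the endosperm, while ROS1, DML2 and DML3 act broadly in the plant body. IBM1 removes histone methylation from gene bodies and so keeps CMT3 away from them.

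All 4 demethylase genes had new isoforms, 7 in total, and on the methylation side CMT2 alone had any, with 3. ROS1, DME and DML3 had 2 new isoforms each and DML2 had 1. MET1, CMT3, DDM1, VIM1 and IBM1 had 0. The median was 2.0 per demethylase gene and 0 per methylation gene. It was 0 over all annotated genes and also over those of at least 9 exons. The sides differ in exon number, since the demethylase genes have 20 or 21 exons while MET1, DDM1 and VIM1 have 12, 16 and 9. No median was taken over genes of at least 20 exons. All members together gave 5 of 10 genes with a new isoform. Over all annotated genes the share was 19.0%, but the members are intron-rich, and among the 5546 genes of at least 9 exons, the smallest number in the 10, it was 48.6%. The members as a whole therefore stood near the background of genes like them. Among the 625 genes of at least 20 exons, the class of the 4 demethylase genes, CMT2 and CMT3, it was 63.2%. Having 2 or more new isoforms, as 4 of the 10 members did, occurred in 19.8% of genes of at least 9 exons. All 4 have at least 20 exons, and the share for that class was not taken, so an excess over like genes cannot be read from this.

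**Figure D1:**
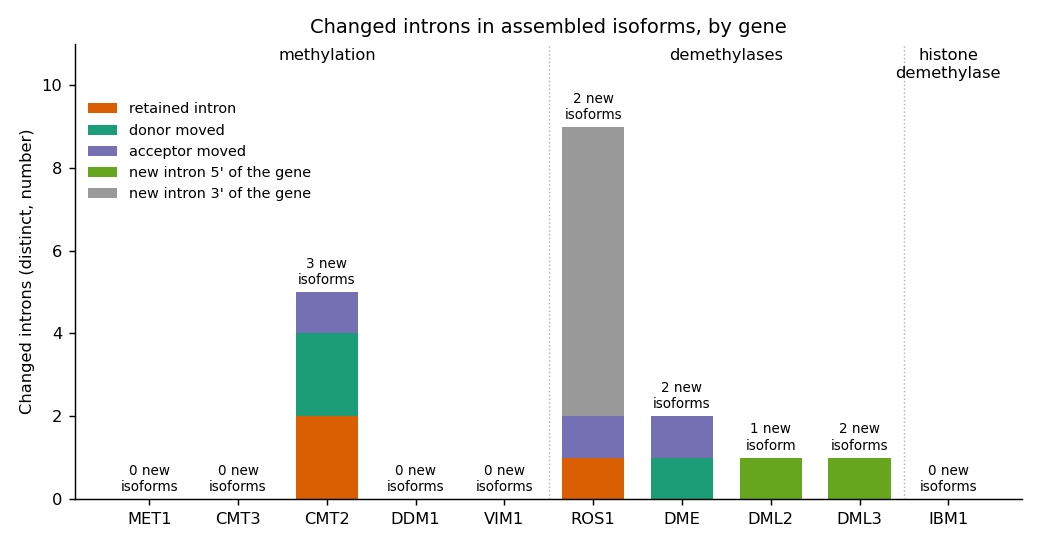
Number of distinct changed introns (y axis) in the new isoforms of each of the 10 genes (x axis), coloured by the kind of change; the number of new isoforms stands over each bar. CMT2 is the only methylation gene with a bar (5 changed introns), all 4 demethylase genes have one, and 7 of the 9 changed introns of ROS1 lie 3' of the gene.

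CMT2 lies on the plus strand of chromosome 4 (TAIR10, 10414526 to 10421209) with 23 exons. Its 3 new isoforms held 5 distinct changed introns, and all 5 lay inside the coding sequence. None of the 5 is in the newer annotation used for comparison. Isoform 1 kept intron 17 of 22, which is 115 nt long, so exons 17 and 18 became 1 exon, and it used an acceptor of intron 22 that lay 10 nt downstream (intron 10420667 to 10420780). Isoform 2 had the same acceptor and a donor of intron 6 that lay 4 nt downstream (intron 10417092 to 10417169). Isoform 3 kept intron 13, of 127 nt, which joined exons 13 and 14. It also used a donor of intron 17 that lay 23 nt upstream (intron 10419661 to 10419798). Intron 17 was thus treated in 3 ways across the set, retained in isoform 1, lengthened by 23 nt into exon 17 in isoform 3, and spliced as annotated in isoform 2. The retained introns were not extreme in length, at rank 7 (127 nt) and 8 (115 nt) of the gene's 22 introns from the longest down. Their A and T content was 70.1% for intron 13 and 59.1% for intron 17, the lowest of the gene, whose introns had a median of 66.4%.

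The moved sites of CMT2 are shown because the length of the moved stretch decides the reading frame. Capitals mark the bases that pass from exon to intron or from intron to exon, and each sequence reads 5′ to 3′ on the gene's strand.
CMT2 intron 6, donor moved by 4 nt, chr4:10417075-10417104: agcaacggatacaGTGTgtatacaagttct
CMT2 intron 17, donor moved by 23 nt, chr4:10419658-10419687: gagGTACATTAGATCAACCAAACGTGgtaa
CMT2 intron 22, acceptor moved by 10 nt, chr4:10420756-10420785: tctcactatctacagGTATTGTCAGattgg
At intron 6 the moved bases begin with a GT and are followed by another GT, and at intron 22 they begin after one AG and end in another.

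None of the 5 changes in CMT2 was a multiple of 3 nt, and each new isoform met an early stop. Read from the annotated start codon, the annotated transcript gives 1295 codons. Isoform 1 gave 1111 codons (85.8% of the annotated number), isoform 3 gave 908 (70.1%) and isoform 2 gave 632 (48.8%). In isoforms 1 and 3 this was also the longest frame that starts with an ATG. In isoform 2 a frame from 10417038 was longer, at 647 codons. The stop of isoform 1 began at base 51 of the retained intron 17 and that of isoform 3 at base 16 of the retained intron 13. In isoform 2 it began at base 21 after the intron with the moved donor. These stops lay 501, 1099 and 1827 nt upstream of the last splice junction in isoforms 1, 3 and 2. In each isoform the other change lay downstream of the stop. A stop over 50 nt upstream of the last junction, the distance usually linked to nonsense-mediated decay, was found in 47.8% of 8124 new isoforms genome-wide that held their annotated start codon. It was found in 2.86% of annotated transcripts. The stops are shown with their surroundings, the stop codon in capitals.
CMT2 isoform 1, chr4:10419722-10419748: acaacaattgtcTGAtaagccatgacc
CMT2 isoform 2, chr4:10417178-10417204: acggcaggctacTAAtcatgacaaaag
CMT2 isoform 3, chr4:10418747-10418773: agaacttgcttcTGAattgaattcttg

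The other methylation genes were present with annotated transcripts alone. MET1 (chromosome 5, 19932230 to 19938369) had 1 transcript of 12 exons, and DDM1 (chromosome 5, 26648951 to 26653073) 1 of 16. CMT3 (chromosome 1, 26248318 to 26253585) had 1 of 21, as many exons as ROS1. VIM1 (chromosome 1, 21414170 to 21417946) had 2, of 9 exons each, which encode 645 and 642 codons. The newer annotation has 2 transcripts for MET1 and 3 for VIM1, and for each of them 1 of these intron chains is not in the deposited set. With no reads in hand, a gene without new isoforms cannot be told apart here from a gene with too few reads to assemble.

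ROS1 lies on the minus strand of chromosome 2 (15308021 to 15314807) with 21 exons, and both of its new isoforms kept the first intron. That intron (15314356 to 15314597) is the longest of the gene's 20, at 242 nt against a median of 87 nt, and lies 5' of the start codon. Keeping it lengthened the stretch before the start codon to 535 nt in both new isoforms, against 293 nt in the annotated transcript. The number of ATG triplets in that stretch was 6 in the new isoforms and 3 in the annotated transcript. The coding sequence was left in frame. Isoform 1 read 1393 codons, as annotated, and isoform 2 read 1392. In isoform 2 the acceptor of intron 2, in the coding sequence, lay 3 nt downstream, which removed 1 codon. The site is shown because it is the smallest step that keeps the frame, with the moved bases in capitals.
ROS1 intron 2, acceptor moved by 3 nt, chr2:15314041-15314070 (minus strand): tattgatgcatgcagGAGatttgttgggaa

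Isoform 1 of ROS1 did not end at the gene. It ran 5454 nt past the annotated 3' end, to 15302567, and its 27 exons add up to 8442 nt. Beyond ROS1 it held 7 introns, of which 5 are annotated introns of the next gene on the same strand, AT2G36480 (15302567 to 15306274), which the reference names a Pcf11-like protein of the pre-mRNA cleavage complex. The other 2 were 437 nt (15302624 to 15303060) and 862 nt long (15306269 to 15307130). The newer annotation holds the intron of 862 nt but not that of 437 nt. An assembled isoform of AT2G36480 itself shared 6 of the 7. An exon of 1241 nt (15307131 to 15308371) ran from ROS1 across its annotated 3' end. The intron of 862 nt linked that exon to AT2G36480 as the deposited set places this gene. The exon covered the short annotated gene AT2G36485 (15306954 to 15307794) in part, and the gap between that gene and ROS1 is 226 nt. In the newer annotation AT2G36480 reaches to 15307809, and 97 nt remain between it and ROS1. By those positions the intron of 862 nt lies within AT2G36480, and the exon of 1241 nt spans the gap to ROS1. The ROS1 stop codon was in its annotated place in isoform 1, but the introns of the neighbour put it 3668 nt upstream of the last junction. Isoforms that hold an intron of a neighbouring gene made up 11.9% of all nuclear new isoforms, and this was 1 of the 10 described here.

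DME lies on the plus strand of chromosome 5 (1309193 to 1318401) and has 2 annotated transcripts with different start codons. The first annotated transcript (18 exons) begins its coding sequence at 1310671 and gives 1729 codons. The second (20 exons) begins at 1309786 and gives 1987. Both new isoforms had 20 exons, began 87 nt upstream of the second annotated transcript and ended 167 nt beyond it. Isoform 1 used a donor of intron 2 that lay 10 nt upstream (intron 1310347 to 1310467, 121 nt). From the upstream start codon it read 199 codons to a stop that began at base 37 after the intron. From the downstream start codon it read 1729 codons, the full length of the shorter protein, because the change lies before that codon. The newer annotation holds this intron chain and gives it the downstream start codon. The first annotated transcript, too, reads 192 codons from the upstream start codon. Isoform 2 used an acceptor of intron 15 that lay 9 nt downstream (intron 1316965 to 1317171), which removed 3 codons and left 1984. The 2 moved sites and the stop are shown, with moved bases or the stop codon in capitals.
DME intron 2, donor moved by 10 nt, chr5:1310337-1310366: cttattcaagGTTCGTCAATgtgagtgatc
DME intron 15, acceptor moved by 9 nt, chr5:1317148-1317177: ttgtttgactgccagGTGAAACAGcgaatt
DME isoform 1, stop from the upstream start codon, chr5:1310492-1310518: ctctttacaattTGAattcaccaatta

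In DML2 and DML3 the change lay at the 5' end, where an exon was added in front of the annotated gene. Both genes are annotated in the deposited set almost without sequence before the start codon (0 nt in DML2, 1 nt in DML3). This is not particular to them, since CMT2 and the IBM1 transcript of 16 exons also have 0 nt there. The CMT2 isoforms began 44, 44 and 42 nt upstream of the annotated start, without a new intron in that stretch. The DML2 isoform (chromosome 3, minus strand) began 343 nt upstream of the annotated start and had a new intron of 225 nt (3088251 to 3088475). It read the same 1332 codons as the annotated transcript, now with 118 nt before the start codon and 0 ATG triplets in them. Its 3' end lay 53 nt further on. Both DML3 isoforms (chromosome 4, plus strand) shared a new intron of 410 nt (16313604 to 16314013), longer than any annotated intron of the gene (up to 276 nt), and began 536 and 466 nt upstream of the annotated start. They differed at an annotated choice near the 3' end, an intron of 80 nt in isoform 1 and of 127 nt in isoform 2. A new intron that reaches upstream of the annotated start occurred in 5.88% of the genes of at least 9 exons, and in 2 of the 10 members.

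The DML3 intron removed the annotated start codon. That codon (16314004) lies inside the intron, 7 nt before its end. The newer annotation starts the longest DML3 protein, of 1105 codons, at 16313411. The assembled isoforms began 56 and 126 nt downstream of that codon and hold its reading frame only from codon 20 in isoform 1 and codon 43 in isoform 2. Within the assembled isoforms the longest open frame that starts with an ATG began at 16315020. It gave 848 codons in isoform 1 and 761 in isoform 2. The annotated transcripts with the same 3' choice gave 1044 and 957 from their start codon. A frame that is open from the 5' end of an isoform without an ATG was not counted. The newer annotation also lists 16315020 as a start codon. Isoforms that did not hold the annotated start codon made up 7.22% of 8756 new isoforms that could be read. The intron end is shown with the annotated start codon in capitals, and the intron ends with the AG that follows it after 5 bases in small letters. The ends of the DML2 intron are given with the terminal bases in capitals.
DML3 end of the new 5' intron, chr4:16313991-16314020: ttttttttttttcATGttgacagatggttc
DML3 start of the new 5' intron, chr4:16313604-16313618: GTaaacaaaatctct
DML2 start of the new 5' intron, chr3:3088461-3088475 (minus strand): GTaatctctcctgca
DML2 end of the new 5' intron, chr3:3088251-3088265 (minus strand): ttgtatcttccacAG

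**Figure D2:**
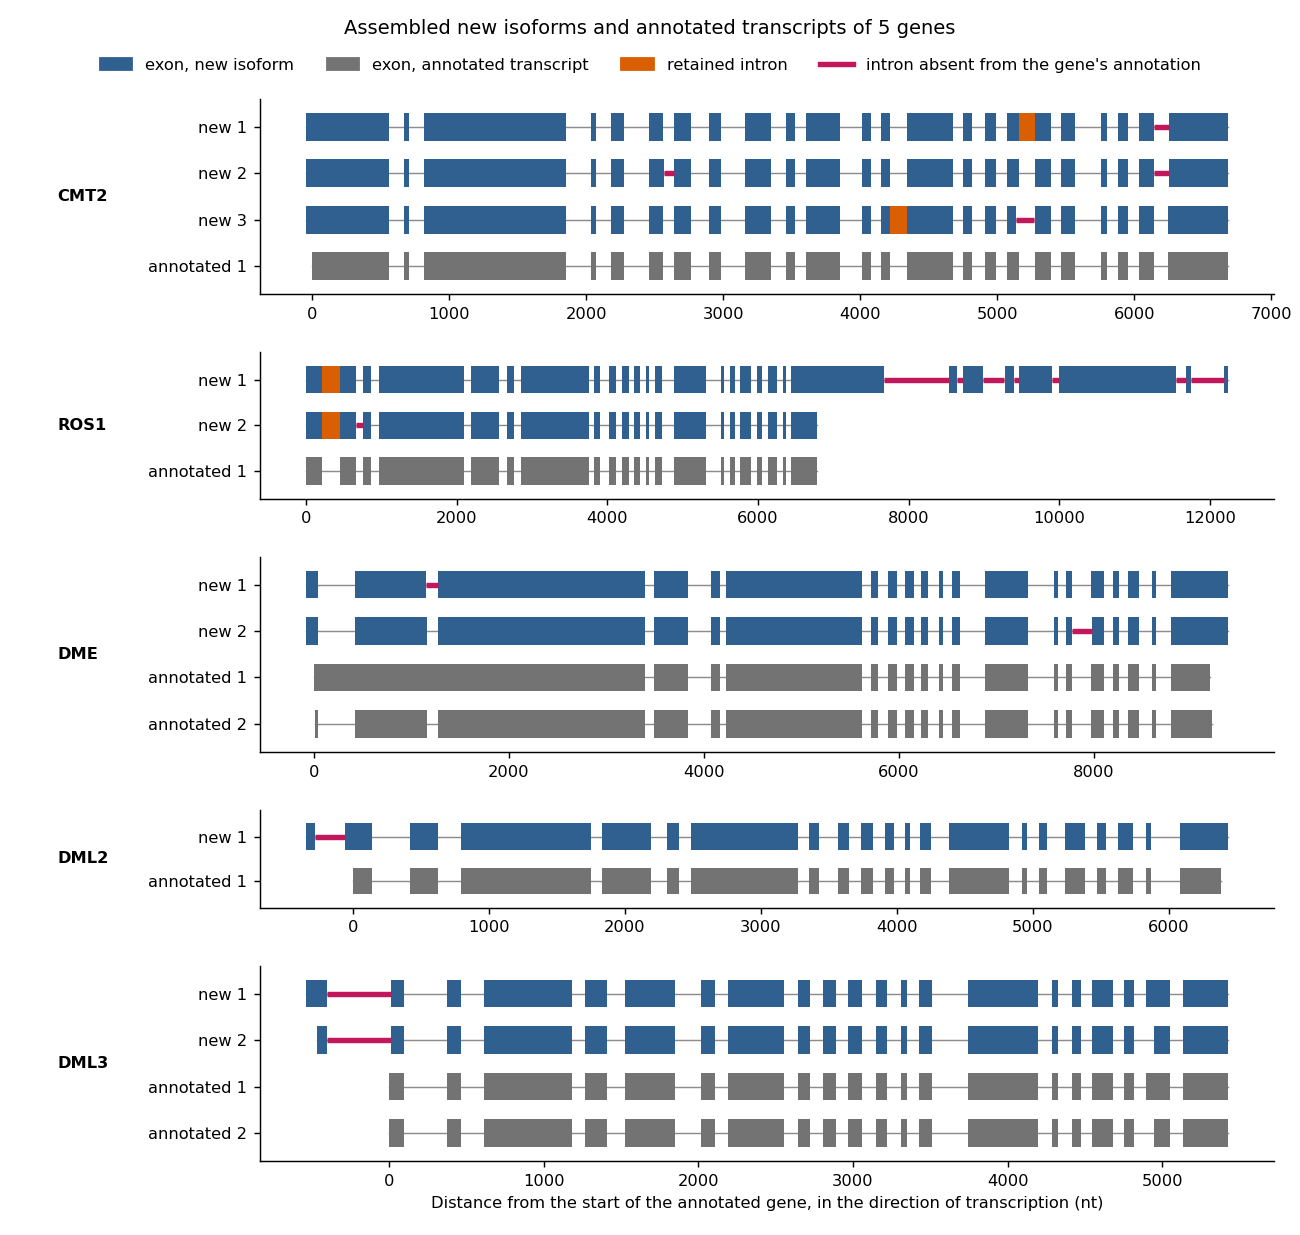
Exon structure of the 10 new isoforms (blue, above) and the annotated transcripts (grey, below) of the 5 genes with new isoforms, against the distance from the annotated start of each gene in nt along the transcript's direction; each gene has its own scale. Orange marks retained introns and magenta marks introns absent from the gene's annotation, which lie inside the gene in CMT2 and DME, at the 5' end in DML2 and DML3, and mostly 3' of the gene in ROS1.

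IBM1 (chromosome 3, 2426069 to 2432913) had 0 new isoforms and 3 annotated transcripts. Its longest intron, of 1974 nt (2429125 to 2431098), is known for carrying heterochromatic marks inside an active gene, and the longest intron of any other member is 525 nt, in VIM1. The shortest annotated transcript, of 7 exons, ends 234 nt into that intron and gives 762 codons. The transcript of 16 exons splices the intron out whole and gives 1027 codons, and the transcript of 17 exons has an added exon within it and gives 1049. The merged set holds these short and long forms by name, with no value for their proportion.

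The changes are set side by side by their place and frame, with CMT2 as the only methylation gene that had any and with no test of a difference. In CMT2 0 of 5 coding changes kept the frame and 3 of 3 new isoforms had an upstream stop. In the demethylase genes 3 changes lay in coding sequence, as placed by the start codon of the nearest annotated transcript. Those of ROS1 (3 nt) and DME (9 nt) kept the frame while that of DME intron 2 (10 nt) did not. The remaining demethylase changes lay at or before that start codon (ROS1 intron 1, and the new introns of DML2 and DML3) or beyond the ROS1 3' end. Placed by the newer DML3 start codon, at 16313411, the new DML3 intron lies inside the coding sequence instead. Of the 7 demethylase isoforms, 4 reached the annotated stop codon, 1 had an upstream stop and 2 did not hold the annotated start codon. The upstream stop is that of DME isoform 1 read from 1309786. From 1310671, the start codon of the other annotated transcript, that isoform reached the annotated stop and the 10 nt change lay before the coding sequence. Of the 4 that reached the annotated stop, ROS1 isoform 1 had it 3668 nt upstream of the last junction. DML3 isoform 2, read from 16315020, stopped 95 nt upstream of the last junction. This isoform was not counted as early, because it lacks the annotated start codon. The annotated DML3 transcript with the same 3' choice also stops 95 nt upstream of its last junction. Genome-wide, 48.8% of the new isoforms with the annotated start reached the annotated stop and 46.9% had an upstream stop. Shifts that were a multiple of 3 made up 33.7% of 3906 coding donor and acceptor shifts and 40.0% of 1073 coding retained introns were a multiple of 3 long. The CMT2 isoforms share introns with each other and all come from 1 gene, so they are not 3 independent cases.

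**Figure D3:**
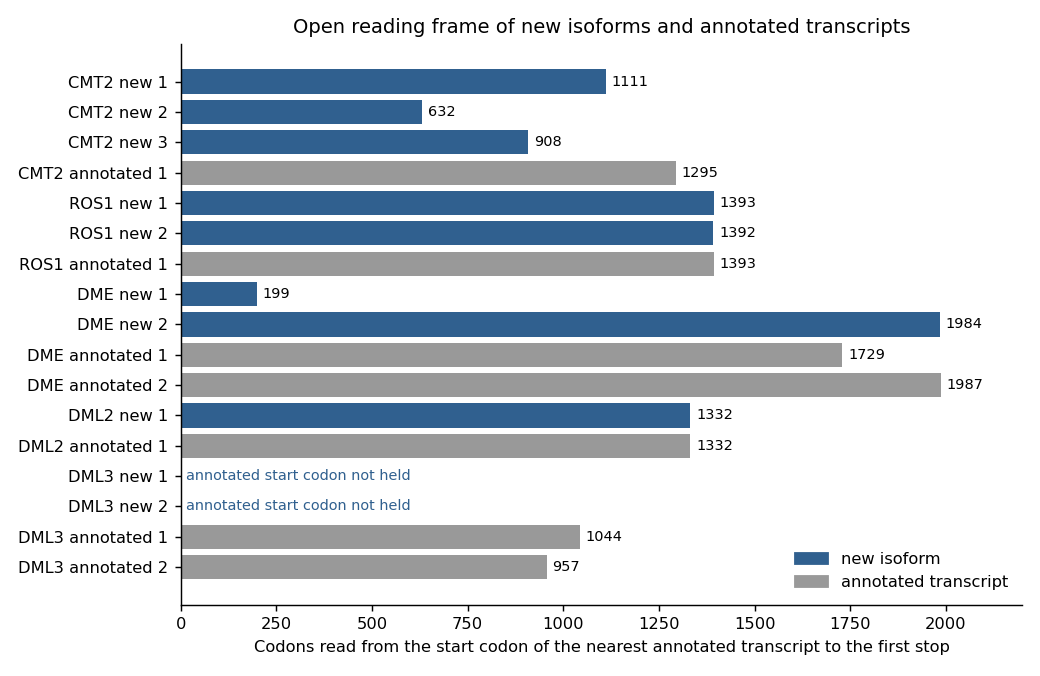
Codons read from the start codon of the nearest annotated transcript to the first stop (x axis) for each new isoform (blue) and each annotated transcript (grey). CMT2 isoforms stop at 632 to 1111 codons, against 1295 as annotated, and DME isoform 1 stops at 199, against 1987. ROS1 and DML2 isoforms and DME isoform 2 stay within 3 codons of the annotated length, and both DML3 isoforms lack the annotated start codon.

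Retained introns were found in 2 of the 10 members, 2 distinct introns in CMT2 and 1 in ROS1, and in 10.8% of genes of at least 9 exons. CMT2 kept coding introns, whereas ROS1 kept an intron before its start codon. A moved acceptor was found in CMT2, ROS1 and DME (23.7% of genes of at least 9 exons had one) and a moved donor in CMT2 and DME (13.9%). The newer annotation holds the intron chain of 3 of 7 demethylase isoforms, namely DME isoform 1, DML2 isoform 1 and DML3 isoform 1, and of 0 of 3 CMT2 isoforms. Over all nuclear new isoforms the share was 14.3%. All 10 new introns that are not annotated introns of AT2G36480 had GT-AG ends.

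The moved splice sites were also scored for their likeness to annotated sites, with a position weight matrix from 127854 annotated nuclear introns. The score is the summed log2 ratio of base frequencies to equal use over 9 bases at the donor or 18 at the acceptor. Of the 3 moved acceptors, the 2 that kept the frame had the lowest scores. The ROS1 acceptor scored at percentile 1.3 of all annotated acceptors, against 60.3 for the site it replaced, and the DME intron 15 acceptor at percentile 2.0, against 43.8. The CMT2 intron 22 acceptor stood at percentile 30.2, against 58.1. Of the donors, that of CMT2 intron 6 scored at percentile 1.5, and the annotated site beside it was weak as well, at 5.9. That of CMT2 intron 17 stood at 63.1, against 86.3. DME intron 2 was the exception, since the donor of the new isoform scored above the annotated one (68.4 against 43.2). Both ends of the new introns of DML2 (47.8 for the donor and 68.8 for the acceptor) and DML3 (83.4 and 75.4) lay within the range of annotated sites. Of the retained introns, CMT2 intron 13 had a donor at percentile 22.1 and an acceptor at 10.5, while CMT2 intron 17 had 86.3 and 67.1 and ROS1 intron 1 had 39.6 and 66.1.

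**Figure D4:**
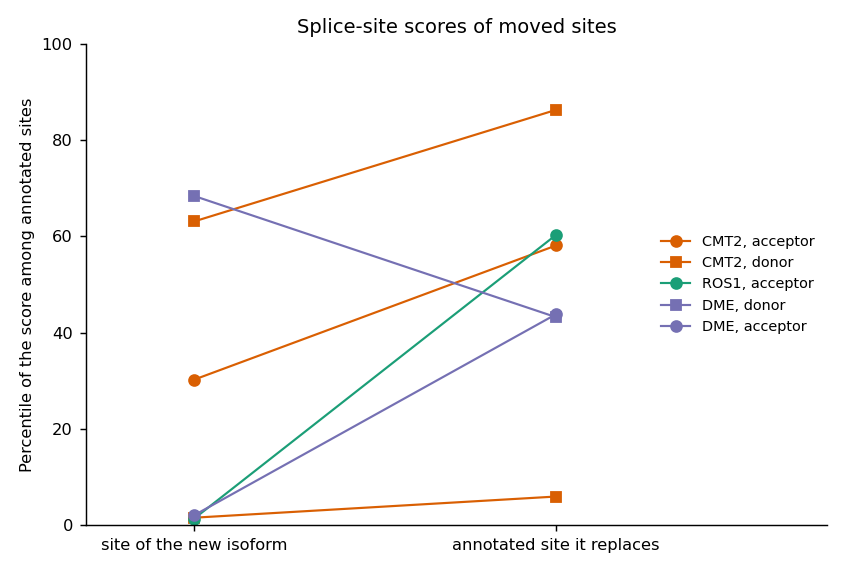
Percentile of the splice-site score among annotated nuclear sites (y axis) for each moved site of CMT2, ROS1 and DME in the new isoform (left) and for the annotated site it replaces (right); squares are donors and circles acceptors. The line of the DME donor alone falls from left to right (68.4 in the new isoform, 43.2 as annotated), and 3 new sites lie at or under percentile 2.0.

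Of 20 other genes of the pathway, which have 2 to 20 exons, 11 had a new isoform. Of the 17 with at least 9 exons 10 had one, beside the 48.6% of all such genes. On the methylation side 3 of 8 genes had a new isoform, with 4 new isoforms and 0 retained introns. Among the partners of demethylation 6 of 10 had one, with 10 new isoforms, and so did both genes that act on IBM1. Retained introns were found in 3 of the 17, beside 10.8% of all genes of at least 9 exons, and in 0 of the shorter genes. Of the 22 new isoforms 15 held an annotated start codon, and 6 of these had an early stop, beside 47.8% genome-wide. Another 1 did not hold it, and 6, all of IBM2, could not be read from one. IBM2 (AT5G11470), which is needed for the full-length IBM1 transcript, had 6 new isoforms and 6 new introns. XRCC1 (AT1G80420), a partner of base excision repair in demethylation, had 3 new isoforms with 2 retained introns. The next 4 genes were tied at 2 new isoforms. AT3G14890, a phosphoesterase by its reference name, and IDM1 (AT3G14980), a histone acetyltransferase that acts in active demethylation, came first by gene code, and IDM1 had 1 retained intron. The other 2 of the tie were named after their values were seen. The MET1 homologue DMT2 (AT4G14140) had 1 new intron, reaching upstream of its annotated start, and 1 of its isoforms had an early stop. EDM2 (AT5G55390), which also promotes the full-length IBM1 transcript, kept 4 distinct introns, and both of its isoforms had an early stop.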

How the data were processed

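Stranded, ribosome-depleted RNA-seq of ago3-3 siliques (2 labelled libraries) was processed by the authors with CASAVA 1.8, TopHat2 and Cufflinks on TAIR10, per the submitters' processing notes; other versions, settings and which libraries were merged: not given in the sources used here. Deposited values are exon start and end positions, per the file headers, with no other unit and 0 columns per library, so depth is unknown and no confidence interval was given. Sequence, start codons and the newer annotation came from TAIR10.1 (RefSeq); 32815 of 32819 nuclear genes found in both overlapped on the same strand, and all 172 annotated introns of the members were in it. Python 3.11.15 was used. New isoforms carry class code j; introns were compared with the gene's annotated introns, and isoforms read from the start codon of the nearest annotated transcript. A stop over 50 nt upstream of the last junction was called early. Event calls were tested on simulated isoforms. All members were described. Of 20 other pathway genes 4 were named by most new isoforms, with ties taken by gene code. The other 2 genes of the tie were named after their values were seen. Members and lists were chosen with earlier results of these data known. Protein sequences were not used here.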

Additional observations from a re-analysis of the deposited data

How the results depend on the processing

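The counts carry no replicate error, since the merged set has no value per library, and leaving out a library was not possible. No paired analysis was possible because the labels give 1 group and the table has no columns per sample. Of 39 recounts under other definitions, 33 left a count within 1.5 times its value, among them every one for the methylation genes, the number of members with a new isoform (4 or 5) and the retained introns. With isoforms and introns of the newer annotation left out, the demethylase genes had 4 new isoforms (against 7), 4 changed introns (against 13) and 1 early stop (against 2). With the ROS1 isoform joined to AT2G36480 left out, they had 6 changed introns and 1 early stop. Counting any stop upstream of the annotated stop also gave 1, because the ROS1 stop is in its annotated place. Unknown depth limits every absence of an isoform.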
